A study of Mus musculus with 6 samples.

Results

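The mitotic and G2 cells of cultured mouse muscle-derived stem/progenitor cells (MDSPCs) were the cells with a high summed level of 10 transcripts that accumulate before and during cell division: Top2a, Cdk1, Ube2c, Cenpf, Mki67, Ccnb2, Cdc20, Birc5, Tpx2 and Hmmr. A cell was kept if it had 5000 or more unique molecular identifiers (UMIs, tags that let each RNA molecule be counted once) and under 15% of them from the mitochondrial genome. A kept cell was a member if the 10 transcripts together made up 15 or more of every 10000 UMIs. The rule found 26099 members among 60325 kept cells, or 43.3%. Members were described against the 18398 cells of the same samples with a sum under 3 per 10000, called low cells here. The remaining 15828 cells lay between these limits. The study isolated 6 MDSPC populations, 3 of them from young and the others from old animals, grew them in proliferation medium on collagen-coated flasks, and profiled each by droplet-based 3′ single-cell RNA sequencing. MDSPCs are the slowly adhering cells of enzymatically dissociated skeletal muscle, enriched by moving the cells that had not attached to fresh flasks over and over. No treatment or transgene is named in the labels, nor are the ages, strain or sex of the mice, and the labels do not say whether a population came from 1 mouse. However, a feature named LACZ had 931 UMIs in the members of young 1 and 0 in those of old 1. The gene list of the other samples does not hold it. Each population was 1 sample, and values below are given in the order young 1, 2 and 3, then old 1, 2 and 3.

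A cell that has copied its DNA passes through G2 and enters mitosis when cyclin B with the kinase Cdk1 becomes active. Spindle motors and kinetochore proteins then align the chromosomes. The anaphase-promoting complex, activated by Cdc20, marks cyclin B and the cohesin guard securin for destruction, so that sister chromatids separate. In muscle, myoblasts leave the cell cycle before they fuse into fibres, and the transcription factor myogenin (Myog) marks cells that have begun to differentiate. Most G2 and mitosis genes are held off in resting cells by the DREAM complex and switched on by B-Myb and FoxM1, acting through a promoter element called the cell cycle genes homology region (CHR). The factor NF-Y binds CCAAT boxes, which many of these promoters also carry.

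The promoters of 4 of the 10 genes are shown because they carry both elements close to the transcription start, as 8 of the 9 genes of the rule with an entry do within 300 bases. RefSeq promoters (assembly GRCm38.p6, 250 bases before to 50 after the start) matched 9 of the 10 genes, and Tpx2 had no entry. The windows below run from 150 bases before to 30 bases after the start, 5′ to 3′ on the gene's strand. Capitals mark every TTTGAA (the CHR) and every CCAAT, each searched on both strands, and no match overlaps another in these windows.
Cdk1, mitotic kinase, chr10:69352883-69353062, minus strand: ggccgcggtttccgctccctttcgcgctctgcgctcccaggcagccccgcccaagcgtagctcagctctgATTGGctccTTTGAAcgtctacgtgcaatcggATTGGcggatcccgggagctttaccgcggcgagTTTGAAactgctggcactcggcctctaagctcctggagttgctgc
Ccnb2, a B-type cyclin, chr9:70421525-70421704, minus strand: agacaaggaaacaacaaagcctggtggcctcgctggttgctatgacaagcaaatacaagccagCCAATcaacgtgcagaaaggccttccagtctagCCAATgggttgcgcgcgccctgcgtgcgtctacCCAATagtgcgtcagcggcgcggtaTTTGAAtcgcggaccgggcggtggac
Cdc20, activator of the anaphase-promoting complex, chr4:118437314-118437493, minus strand: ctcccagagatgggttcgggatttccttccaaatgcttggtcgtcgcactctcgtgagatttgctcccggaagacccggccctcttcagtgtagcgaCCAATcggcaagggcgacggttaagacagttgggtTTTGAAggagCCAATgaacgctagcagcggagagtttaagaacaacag
Top2a, DNA topoisomerase II alpha, chr11:99024160-99024339, minus strand: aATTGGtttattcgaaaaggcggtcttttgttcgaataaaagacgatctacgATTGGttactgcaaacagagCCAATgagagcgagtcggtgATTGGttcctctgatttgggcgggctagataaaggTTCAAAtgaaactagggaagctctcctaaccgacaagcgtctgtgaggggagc
Over the full 300 bases, TTTGAA was present in 8 of the 9 promoters, against 18.1% of the 27025 promoters in the table. CCAAT was also present in 8 of 9, against 37.9% of all. The variant TTTAAA was found in 2 of 9, Cenpf and Birc5, against 13.2% of all. Birc5 was the gene without TTTGAA and without CCAAT. These matches describe letters only, and no binding was measured.

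Sequencing was deep and similar across samples, with medians of 13181 to 20111 UMIs per kept cell. Of 62849 barcodes, 2520 fell under 5000 UMIs and 4 were over the mitochondrial limit. The members of a sample summed to between 43519974 and 120712332 UMIs. Young 1 and old 1 had been counted on a gene list of 21849 features and the other 4 samples on one of 32285, so genes were compared over the 21485 Ensembl identifiers that both lists hold, which took 98.5% to 99.9% of UMIs. Between 22 and 35 barcode sequences recurred in any pair of libraries, and 417 distinct ones were seen in 2 or more. The labels name the populations as biological replicates without saying which mice they came from, so p-values measure the spread between these 6 populations.

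All 10 genes of the rule were above the low cells in each sample, and their mix differed between populations. The rule chose the cells on the sum of these genes and set no limit for any single one. Ccnb2 in young 3, for example, was at 0.498 UMIs per 10000 in members and 0.105 in low cells. In 3′ sequencing a molecule is counted once whatever its length. How well the transcripts of each gene were captured was not measured, so the order of genes below is that of their UMIs. Ube2c, the ubiquitin-conjugating enzyme of the anaphase-promoting complex, had the most UMIs in 5 of the 6 samples, at 9.22, 9.24, 8.78, 6.42, 8.52 and 15.2 UMIs per 10000 in members. In old 3 it made up 38.4% of the 10-gene UMIs, against 20.7% to 29.3% in the other 5 samples. Birc5 (survivin, part of the chromosomal passenger complex) was at 5.77, 7.35, 7.07, 4.67, 9.53 and 7.92, second to Ube2c in 4 samples, above it in old 2 and behind Ube2c and Top2a in old 1. Top2a, which untangles sister chromatids, stood at 3.42, 3.09, 3.43, 6.20, 3.91 and 2.87, highest in old 1. Cdk1 itself varied little, from 3.03 in old 2 to 4.62 in old 3. Ccnb2 was at 0.498 to 1.26, and Mki67, the source of the Ki-67 antigen, at 0.859 to 1.68. After each cell was thinned at random to 5000 UMIs, Mki67 was seen in 47.5%, 42.0%, 39.9%, 50.9%, 40.6% and 31.7% of members, and without thinning in 65.6% to 83.5%. A member without a Mki67 UMI was therefore common at this depth. In low cells the thinned share was 0.211% to 2.10%.

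**Figure D1:**
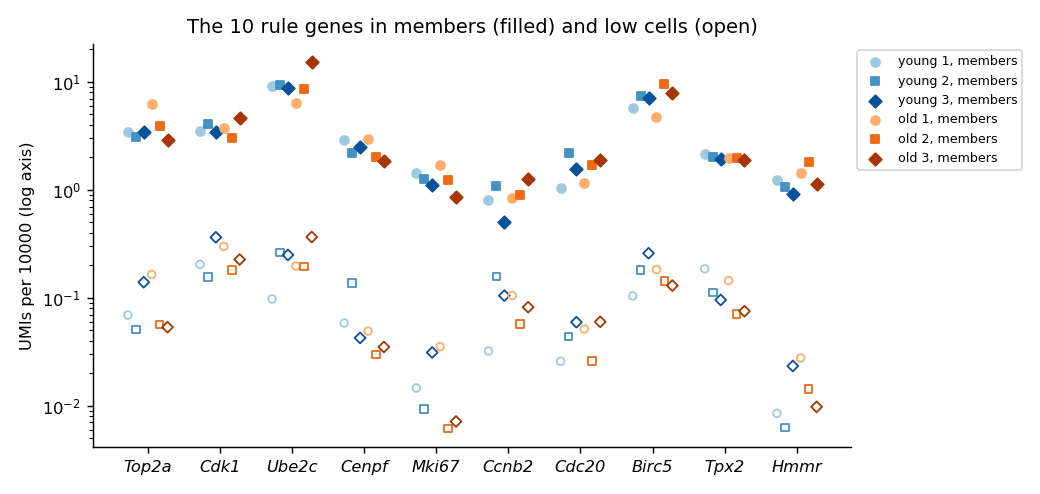
UMIs per 10000 (log axis) of the 10 genes of the rule, summed over the members (filled symbols) and the low cells (open symbols) of each of the 6 samples. Ube2c in old 3 (15.2) and Top2a in old 1 (6.20) lie above the other samples. Every filled symbol lies above the open symbols of its gene, and the rule chose the cells on the sum of these genes.

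Members made up very different shares of the populations, and the ranges of young and old overlapped. With every cell thinned to 5000 UMIs before the rule, members were 29.3%, 40.2% and 56.2% of kept cells in young populations, and 51.7%, 26.3% and 45.7% in old ones. Wilson 95% binomial intervals, which cover counting error only, ran from 28.3% to 30.3% in young 1 and from 55.3% to 57.2% in young 3, so counting error is small beside the spread between populations. The means were 41.9% ± 13.5 for young and 41.3% ± 13.3 for old (SD, n = 3 each). Their difference of -0.642 points was within that spread (exact permutation test, two-sided, p = 1.0, smallest possible p 0.1). Without thinning the shares were 29.9%, 40.9%, 57.5%, 52.9%, 26.4% and 46.1%. The difference became 6.52 points without young 3 and 6.83 points without old 2, and 0.599 points when members had to reach 20 per 10000. Low cells, counted without thinning, were 48.6%, 33.5%, 10.3%, 17.3%, 55.6% and 26.1% of kept cells, fewest in young 3 and old 1. Cells at 60 or more per 10000 were 0.829% to 1.95% of kept cells in 5 samples and 7.47% in old 3, the sample with the high Ube2c level.

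**Figure D2:**
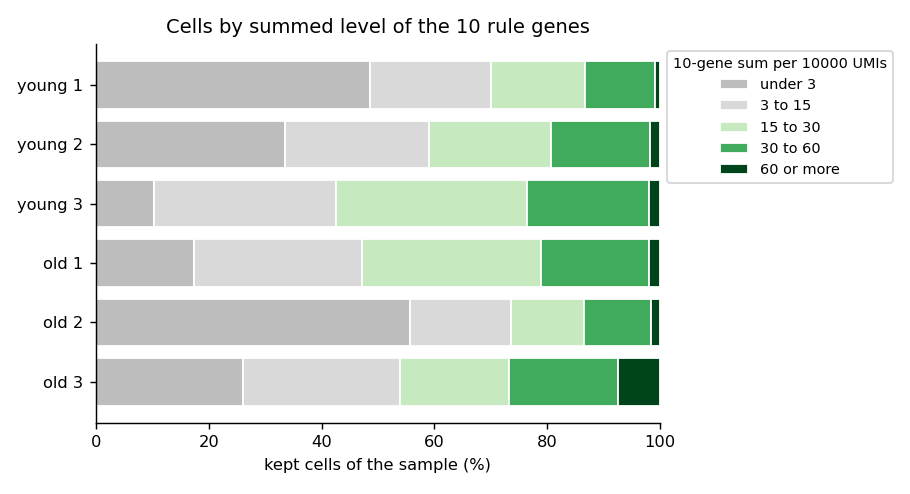
Kept cells of each sample (percent) by the 10-gene sum per 10000 UMIs, unthinned; green parts are members, grey parts are not. Young 3 and old 1 have the largest member shares (57.5% and 52.9%), and the darkest part, 60 or more per 10000, is widest in old 3 (7.47%).

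The sum is a continuous scale, and the limit of 15 cuts through it. There were 3414 cells between 12 and 15 per 10000 and 3238 members between 15 and 18. In members just inside the limit, cyclin B1 (Ccnb1), which is not in the rule, stood at 0.523 to 0.664 UMIs per 10000 over the 6 samples. In cells just outside it stood at 0.398 to 0.535. The replication clamp Pcna was at 1.79 to 2.18 inside and 1.62 to 2.18 outside, so cells on both sides held much the same level of this S-phase transcript.

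Checked against lists that hold no gene of the rule, the name mitotic and G2 cells describes the upper steps of the range better than that of 15 to 30. That step held a large part of the members, whose median sum was 27.7, 29.0, 27.1, 26.8, 30.3 and 33.8 per 10000. In young 1, 2 and 3 and in old 1 most members thus lay in it. The mitosis-peaking list (Ccnb1, Plk1, Aurka, Cenpe, Cenpa, Kif20a, Sgo2a, Dlgap5) rose through every step of the sum, in old 1 from 0.57 UMIs per 10000 in low cells to 5.76 at a sum of 15 to 30, 10.7 at 30 to 60 and 19.7 at 60 or more. In cells at 60 or more it reached 16.9 to 19.9 over the 6 samples. A mitosis-list UMI was missing in 0.0918% to 0.477% of members and in 47.1% to 77.2% of low cells. The 43-gene S-phase list was also higher in members than in low cells. Its median per cell was 19.5, 20.9, 24.5, 25.7, 22.4 and 21.7 per 10000 in members, against 4.25, 5.77, 8.94, 7.99, 5.29 and 4.71 in low cells. In cells between the limits it was 14.7, 11.6, 31.6, 25.9, 10.5 and 13.6, above members in young 3 and old 1. Summed over cells, this list was highest at a sum of 15 to 30 in 5 samples (23.2 to 28.9 per 10000) and lower again at 60 or more (16.5 to 22.5). Young 3 was the exception, with 30.8 at a sum of 3 to 15 and 29.8 at 15 to 30. Members at a sum of 15 to 30 thus carried S-phase transcripts beside G2 ones, and the rule does not separate late S phase from G2.

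**Figure D3:**
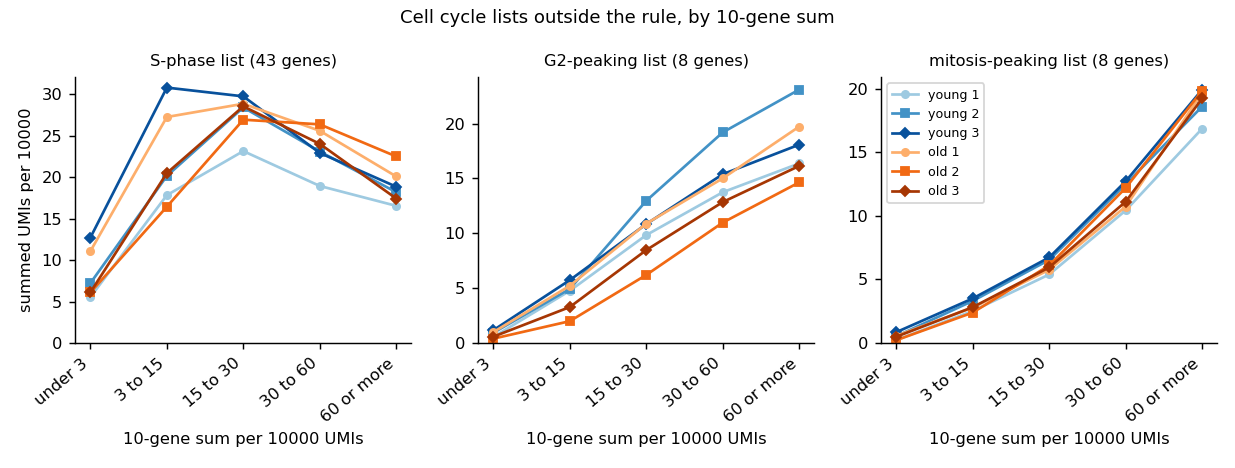
Summed UMIs per 10000 of the S-phase, G2-peaking and mitosis-peaking lists (vertical axes) in cells grouped by the 10-gene sum (horizontal axis), 1 line per sample. Mitosis-peaking and G2-peaking transcripts climb to the last step in every sample, whereas S-phase transcripts peak at 3 to 15 or 15 to 30 and fall after.

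Genes of cell division outside the rule moved with it, and are given as a description because they follow the rule genes by their nature. Differences are log2 ratios of members over low cells from a fit over the 6 samples, with the model's standard error (SE), and levels are CPM (a gene's count scaled to a common total, with edgeR's TMM factors). The background was high: of the 12990 genes outside the rule and the cell cycle lists, 19.6% were higher in all 6 samples and 26.1% lower in all 6, and the median difference was -0.06. All 13 genes of the cyclin and Cdk switch were higher in all 6 samples, with a median of 3.70. Ccnb1 stood at 139, 169, 160, 114, 161 and 162 CPM in members against 3.93, 4.08, 5.88, 6.75, 3.78 and 5.28 in low cells, with no overlap between the states. Its difference was 4.98 (SE 0.18). Ccna2, the cyclin of S phase and G2, differed by 6.06 (SE 0.25). Cdc25c, the phosphatase that activates Cdk1, differed by 5.04 (SE 0.28). The mitotic kinases Plk1 and Aurka differed by 4.88 (SE 0.29) and 4.78 (SE 0.21).

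The structural genes of mitosis were higher in members as well. All 22 spindle and microtubule genes were higher in all 6 samples, with a median of 4.42, led by the microtubule binder Nusap1 (6.72, SE 0.16), the spindle-pole protein Aspm (6.66, SE 0.20) and the depolymerising kinesin Kif2c (6.60, SE 0.26). All 18 kinetochore and checkpoint genes were higher, with a median of 4.33, led by the kinetochore motor Cenpe (5.98, SE 0.24) and the kinetochore scaffold parts Knl1 (5.39, SE 0.28) and Nuf2 (5.29, SE 0.32). All 9 genes of the passenger complex and cytokinesis were higher, with a median of 4.37, among them Cep55 of the midbody (5.68, SE 0.27), the kinase Aurkb (5.44, SE 0.34) and its partner Cdca8 (5.04, SE 0.29). The 17 condensin and chromatin genes were higher by a median of 2.18, with the condensin subunits Ncapg (4.99, SE 0.22) and Ncaph (4.14, SE 0.37) and the chromatin protein Hmgb2 (4.28, SE 0.17) at the top.

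Of the 13 genes of the anaphase machinery, 11 were higher in all 6 samples, and the median was 0.97. Separase (Espl1) differed by 4.85 (SE 0.14) and Fbxo5, an inhibitor of the anaphase-promoting complex, by 4.17 (SE 0.32), whereas the cohesin subunit Rad21 differed by 1.66 (SE 0.06). Of 11 transcriptional regulators of the cycle, 8 were higher in all 6 samples, with a median of 0.92. Foxm1 differed by 3.69 (SE 0.10), Mybl2, which encodes B-Myb, by 3.05 (SE 0.25) and the repressor E2f7 by 2.90 (SE 0.43). Foxm1 was at 29.7, 24.9, 36.4, 27.8, 25.5 and 21.1 CPM in members and at 1.51 to 3.41 CPM in low cells. Of the 43 S-phase genes, 41 were higher in all 6 samples, with a median of 1.87. The checkpoint mediator Clspn differed by 3.44 (SE 0.33) and Cenpu by 3.41 (SE 0.28), while Mcm5 of the replicative helicase differed by 2.21 (SE 0.26) and Pcna by 1.40 (SE 0.19).

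Outside these lists, the quasi-likelihood F test of edgeR, adjusted by Benjamini-Hochberg, called 6649 of 12990 genes (51.2%) at 0.05, of which 2798 (21.5% of those tested) were higher and 3851 (29.6%) lower in members. Because the rule chose the cells on this contrast, the counts are printed and nothing is read from their size. Genes were ranked among those called, agreeing in sign in 6 of 6 samples and with a mean log2 CPM above 5. The 10 with the largest rise were themselves genes of cell division or DNA replication that the lists had missed. Pimreg, a mitotic regulator, had 77.5, 57.3, 66.0, 51.6, 78.0 and 46.7 CPM in members and 0.531 to 1.58 CPM in low cells, a difference of 5.98 (SE 0.20). The mitotic kinase Pbk differed by 5.52 (SE 0.21), the spindle protein Knstrn by 4.27 (SE 0.26), and Cdca3, Cenpq and Diaph3 by 4.00, 3.64 and 3.30. The replication-dependent histone transcripts Hist1h1b and Hist1h2ap differed by 4.96 (SE 0.22) and 4.34 (SE 0.14). Hist1h2ap has near-identical copies among which reads may be split. The replication genes Tk1 (thymidine kinase) and Pclaf (a partner of PCNA) differed by 4.16 (SE 0.28) and 4.07 (SE 0.35). All 10 were higher in 6 of 6 samples.

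Transcripts of muscle differentiation were much lower in members than in low cells, and cells between the limits were also below low cells. All 19 genes of the differentiation list were called lower, 18 of them in 6 of 6 samples, with a median difference of -3.46. Over all genes tested, 29.6% were called lower, 26.1% were lower in 6 of 6 samples and the median was -0.06. Myog (chr1:134289989-134292548 on mm10) stood at 5.32, 104, 20.4, 0.64, 15.99 and 662 CPM in members and at 66.2, 840, 150, 30.6, 286 and 1758 CPM in low cells of the same samples. It was lower in members in each sample, although the populations themselves differed by over an order of magnitude. The difference was -3.30 (SE 0.46, adjusted p = 0.00059, edgeR). Skeletal actin Acta1 was at 23.1, 65.9, 8.10, 2.55, 21.5 and 909 CPM in members against 287, 1680, 224, 104, 455 and 5140 CPM in low cells, a difference of -4.21 (SE 0.37). The fast myosin light chain Mylpf was at 63.1, 213, 25.02, 8.30, 50.9 and 3023 CPM against 853, 3097, 382, 235, 933 and 13885 CPM, a difference of -3.80 (SE 0.32). Under the same ranking, limited to genes with a mean log2 CPM above 5, the 10 genes with the largest fall were all muscle genes. Besides Acta1 and Mylpf they were the embryonic myosin Myh3 (-4.38), Smpx (-4.28), the troponin Tnnc2 (-4.23), the cardiac actin Actc1 (-4.14), the light chains Myl4 (-3.96) and Myl1 (-3.88), the troponin Tnnc1 (-3.75) and the fusion protein Mymk (-3.53), each lower in 6 of 6 samples with adjusted p values between 1.31e-06 and 0.000253 (edgeR).

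The contrast was smaller in old 3 for most of these genes. Its log2 ratios were -1.41 for Myog, -2.20 for Mylpf, -2.499 for Acta1, -2.89 for Myh3 and -3.13 for Myl4, compared with -2.85 to -4.77, -3.75 to -4.74, -3.60 to -5.10, -4.13 to -4.63 and -3.77 to -4.33 in the other 5 samples. Old 3 was also the population with the highest level of the whole list, at 8800 CPM in members and 35326 CPM in low cells, against 340 to 2058 and 1356 to 11742 CPM elsewhere. Within its members the list stood at 90.8, 82.6 and 88.5 per 10000 as the sum rose from 15 to 30, to 30 to 60 and to 60 or more. The part of free RNA from differentiating cells in this level was not tested.

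**Figure D4:**
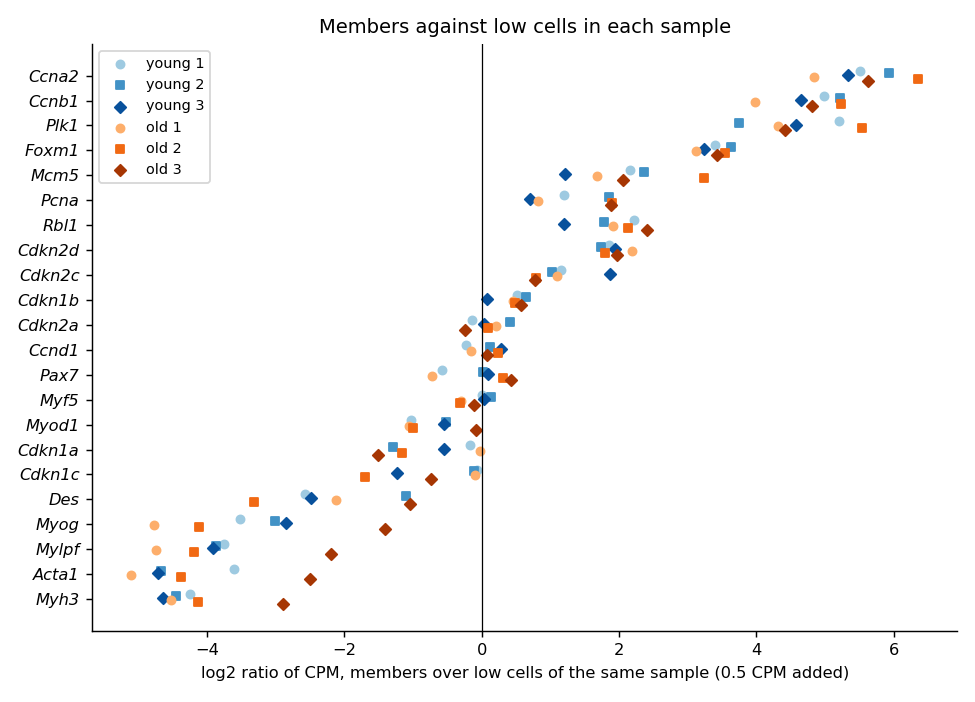
Log2 ratio of CPM in members over low cells of the same sample (0.5 CPM added to both) for 22 named genes, 1 symbol per sample. Ccna2, Ccnb1, Plk1 and Foxm1 lie above 3, Des, Myog, Mylpf, Acta1 and Myh3 lie below 0 in all samples with old 3 nearest to 0, and Cdkn2a, Ccnd1, Pax7 and Myf5 scatter around 0.

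Genes that mark the myoblast state changed less than those of differentiation. Of the 12 progenitor genes, 6 were called lower and none higher, beside 29.6% and 21.5% over all genes tested, with a median of -0.22. The myoblast factor Myod1 stood at 39.3, 405, 44.4, 50.2, 279 and 953 CPM in members and 80.3, 584, 65.3, 105, 558 and 1004 CPM in low cells, and was lower in 6 of 6 samples by -0.71 (SE 0.13, adjusted p = 0.00279, edgeR). The muscle intermediate filament Des and M-cadherin Cdh15 fell by -2.13 (SE 0.33) and -0.97 (SE 0.17). The satellite cell factor Pax7 did not pass the test (-0.09, SE 0.18), at 9.59, 56.7, 0.03, 10.2, 24.6 and 39.1 CPM in members and 14.6, 55.8, 0, 17.3, 19.7 and 29.0 CPM in low cells. Myf5, a further early myogenic factor, did not pass either (-0.11, SE 0.08). No Myf5 UMI was counted in members or low cells of young 1, and Pax7 had 4 UMIs in the members and none in the low cells of young 3, so these defining markers were absent or nearly so in those populations. Over the other 5 samples Myf5 in members ranged from 11.02 to 46.03 CPM.

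The share of cells with a transcript was lower in members of all 6 samples for Myog and differed in direction between samples for Myod1, Cdkn1a and Pax7. At 5000 UMIs per cell, Myog was seen in 0.989%, 12.5%, 5.00%, 0.306%, 3.43% and 38.2% of members and in 5.77%, 34.1%, 9.69%, 2.10%, 21.6% and 57.5% of low cells. The mean difference was -11.7 points (SD 8.88, lower in 6 of 6 samples). Its exact sign-flip permutation p of 0.03125 is the smallest that 6 samples allow, and it became 0.125 after adjustment over the 4 genes tested. Myod1 differed by -6.76 points (SD 6.71, lower in 5 of 6, adjusted exact p = 0.188), Cdkn1a by -4.61 (SD 6.29, lower in 4 of 6, adjusted exact p = 0.208) and Pax7 by 0.551 (SD 2.77, higher in 4 of 6, adjusted exact p = 0.594). These 3 values depended on thinning: without it they were -0.814, 0.212 and 4.66 points. Without thinning, Myog was seen in 2.06%, 22.2%, 10.7%, 0.668%, 9.09% and 51.6% of members and 7.31%, 41.7%, 12.6%, 2.79%, 31.7% and 65.5% of low cells. No class of cells known to lack Myog was defined here, so the level that free RNA gives was not measured.

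Inhibitors of the cell cycle did not move as 1 group. Of 10 Cdk inhibitors and pocket proteins, 4 were called higher in members and 3 lower, where the shares over all genes tested were 21.5% and 29.6%. The p107 gene Rbl1, a pocket protein made in S phase, rose by 2.08 (SE 0.16), from 2.97 to 6.63 CPM in low cells to 14.99 to 19.2 CPM in members. The Ink4 family members Cdkn2d and Cdkn2c rose by 1.93 (SE 0.07) and 1.10 (SE 0.13), and Cdkn1b, which encodes the inhibitor Kip1, by 0.47 (SE 0.08), each in 6 of 6 samples. Cdkn2d had 74.6, 89.4, 68.3, 48.4, 98.8 and 153 CPM in members against 20.3, 26.4, 17.5, 10.2, 28.1 and 38.5 CPM in low cells, so the states did not overlap. Cdkn1a, a p53 target whose product stops Cdk2, fell by -0.79 (SE 0.21, adjusted p = 0.0137, edgeR), lower in 6 of 6 samples. It stood at 418, 388, 117, 398, 985 and 86.1 CPM in members and 472, 946, 171, 406, 2192 and 245 CPM in low cells, and its log2 ratio ranged from -0.03 in old 1 to -1.50 in old 3. Without young 2 its difference was -0.66 and its adjusted p was 0.054 (edgeR). In UMIs per 10000, Cdkn1a stood at 3.98, 9.06, 1.91, 4.49, 22.5 and 2.20 in low cells. At a sum of 3 to 15 it was already lower, at 2.89, 4.49, 1.04, 3.49, 10.9 and 0.782. In members at 15 to 30 it was 3.96, 4.09, 1.25, 4.27, 10.2 and 0.922, above the cells between the limits except in young 2 and old 2. Cdkn2b fell by -0.50 (SE 0.10). Cdkn1c, at 1.02 CPM on average in members, fell by -1.12 (SE 0.35) and lost its call without young 3, without old 3 and in cells of 10000 to 25000 UMIs only.

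Cdkn2a (chr4:89274471-89294653 on mm10, minus strand), the locus of the senescence-linked Ink4a and Arf proteins, did not pass the test between members and low cells. Members had 13.7, 14.4, 6.60, 96.9, 32.3 and 505 CPM and low cells 15.2, 10.8, 6.45, 83.7, 30.2 and 598 CPM. The difference was 0.06 (SE 0.08, adjusted p = 0.563, edgeR), higher in 4 of 6 samples. In old 3, the population with the highest level, 88.1% of members and 88.3% of low cells had a Cdkn2a UMI at 5000 UMIs per cell. Without thinning the shares were 98.4% and 97.8%. The 2 proteins share the 3′ end of their transcripts, and 3′ counting does not tell them apart.

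**Figure D5:**
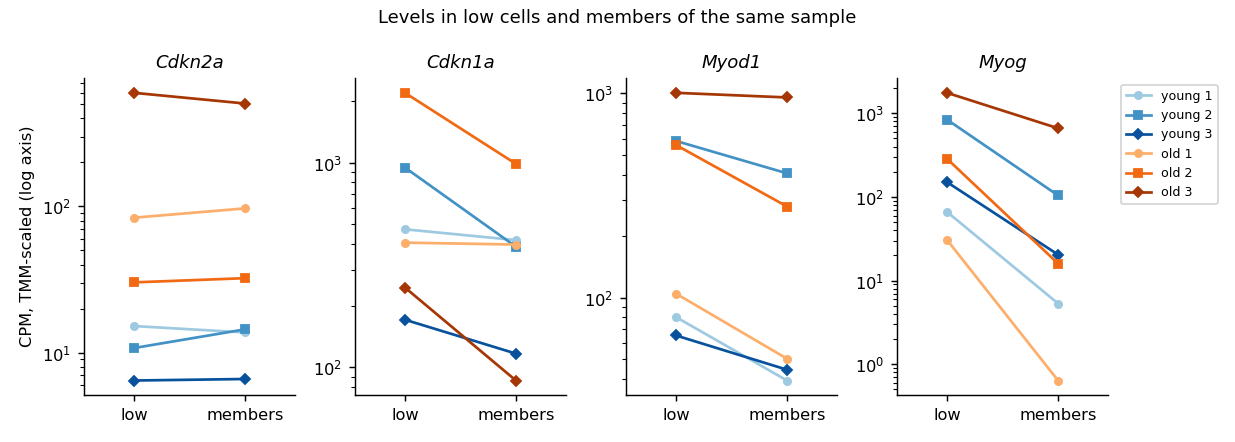
CPM (TMM-scaled, log axis) of Cdkn2a, Cdkn1a, Myod1 and Myog in the low cells and the members of each sample, joined by a line. Cdkn2a lines are nearly flat at levels from 6.60 to 505 CPM in members, and Myog falls in all 6 samples.

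G1 regulators differed from gene to gene. Cyclin D1 (Ccnd1) was at 546, 130, 383, 701, 331 and 330 CPM in members and 642, 120, 316, 783, 281 and 314 CPM in low cells and did not pass the test (0.05, SE 0.07). Cyclins D2 and D3 were lower in members by -0.91 (SE 0.11) and -0.40 (SE 0.08), in 6 of 6 samples. Cyclin E1 (Ccne1), Cdk2 and Cdk4 were higher by 0.95 (SE 0.16), 1.02 (SE 0.09) and 0.36 (SE 0.06). In all, 3 of these 7 genes were called higher and 2 lower, beside 21.5% and 29.6% over all genes tested.

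Counts of calls in further lists stand beside 21.5% called higher and 29.6% lower over all genes tested, or 51.2% either way, and nothing is read from them. Of the mitochondrial genome, 12 of 13 genes were called lower, with a median of -0.28, led by mt-Nd4l (-0.50, SE 0.05). Of 16 immediate early genes, which respond within minutes to stimulation and handling, 3 were called higher and 7 lower. Egr1 fell by -0.96 (SE 0.11) and Atf3 by -0.87 (SE 0.21), and Fosl1 rose by 0.89 (SE 0.13). Among 17 extracellular matrix genes tested, 1 was called higher and 6 lower, with Thbs1 at -0.84 (SE 0.11), Col6a1 at -0.62 (SE 0.14) and Ccn1 at -0.42 (SE 0.06). Col6a1 lost its call with cells thinned to 5000 UMIs. Of 12 heat shock genes, 5 were called higher and 3 lower. The small chaperone Hspb1 fell by -1.32 (SE 0.25) and Hspa1a by -0.60 (SE 0.11), whereas Hsp90aa1 rose by 0.39 (SE 0.05). Glycolysis genes gave 1 call higher and 3 lower of 14, including Hk1 (-0.47, SE 0.06) and Aldoa (-0.46, SE 0.07).

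Counts of calls in lists of stress and secretion are given in the same way, and nothing is read from them. Of 15 p53 targets, 7 were called higher and 2 lower, beside 21.5% and 29.6% over all genes tested, with a median of 0.17. Ei24 rose by 0.54 (SE 0.06) and Trp53inp1 fell by -0.65 (SE 0.14), both in 6 of 6 samples, and Gdf15 rose by 0.48 (SE 0.17) in 5 of 6, a call that was lost without any one sample except old 1, without the filter on low counts, with cells thinned to 5000 UMIs, with members at 20 or more per 10000, and in cells of 10000 to 25000 UMIs only. Of 15 interferon-response genes, 3 were called higher and 3 lower. Isg15 (0.86, SE 0.26) and Ifit3 (1.09, SE 0.37) were at 2.24 and 0.495 CPM on average in members, and Isg15 lost its call without old 2 or old 3 and in cells of 10000 to 25000 UMIs only. Ifit3 lost it without young 2, young 3, old 1 or old 2 and with members at 20 or more per 10000. Ifit1 did not pass (1.32, SE 0.56), except with cells thinned to 5000 UMIs. Of 15 secretory-phenotype genes tested, 1 was called lower and none higher. This was Igfbp3 (-0.79, SE 0.27), lower in 5 of 6 samples, whose call was lost without young 1, young 3, old 1 or old 2 and without the filter on low counts.

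Members had more UMIs per cell than low cells. Median UMIs per cell were 15823, 19334, 17828, 15187, 22124 and 15142 in members against 12706, 15145, 12035, 11814, 19861 and 11911 in low cells, or 1.25, 1.28, 1.48, 1.29, 1.11 and 1.27 times as many. On the log2 scale the mean difference was 0.35 (SD 0.13, higher in 6 of 6 samples). Total UMIs are the divisor of the rule and set its limit of 5000, so this difference is given without a test. Droplets that caught more than 1 cell also hold more UMIs. Without the 5% of cells with the most UMIs in each sample the difference was 0.32, higher in 6 of 6. In old 2 it went from 0.156 to 0.092. The part of droplets with more than 1 cell in this difference was not tested. At 5000 UMIs per cell, members showed 53.9 more genes than low cells at the median (SD 28.5, 6 of 6 samples), with 1866, 2048, 2106, 2050, 2105 and 1981 genes in members. The genes of the rule are among those counted, so this gap is given without a test. Without thinning the gap was 590 genes. The mitochondrial share of UMIs was lower in members, with differences of -0.207, -0.564, -0.585, -0.106, -0.711 and -0.317 points, from medians of 2.47% to 3.47% in low cells. The mean was -0.415 points (SD 0.240, lower in 6 of 6 samples). The rule limits this share and has the same divisor, so the difference is given without a test.

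Most markers of other cell types were scarce in members, with the exception of some tendon and mural genes. Of the immune markers, Ptprc was seen in at most 0.0191% of members after thinning and Tyrobp had no UMI at all, and the 5 immune genes summed to 1.28 to 7.75 CPM. The fibro-adipogenic, Schwann, erythroid and epithelial lists summed to at most 2.47, 2.503, 0.336 and 11.2 CPM in members, with Lum at 0 UMIs. The endothelial list summed to 0.644 to 1.81 CPM in 5 samples and to 64.3 CPM in young 2, where 5681 of its UMIs in members came from Tek. The mural list reached 14.7 to 74.2 CPM and the tendon list 109 to 266 CPM. The tendon sum came from Scx (99173 UMIs over all members) and Mkx (2263), while Tnmd had 5. The mural sum came from different genes in different samples, with 4982 UMIs of Notch3 in young 2, 961 of Rgs5 in young 3 and 929 of Cspg4 in young 1. Low cells gave 136 to 332 CPM for the tendon list. Other lists differed more between the states in single samples, in either direction. The mural list of young 3 was at 16.9 CPM in members and 37.8 CPM in low cells, and the endothelial list of old 2 at 1.21 and 0.540 CPM. In members against low cells, 1 of 4 mural genes tested was called higher and 1 lower (Rgs5, -1.59, SE 0.36). Of 3 epithelial and 2 tendon genes tested, 1 each was called lower, and no other marker was called. Over all genes tested, 21.5% were called higher and 29.6% lower, and nothing is read from these counts.

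Within members, few genes passed the test between old and young samples, and the test had little power. On simulated counts it found 27.6% of 4-fold and 2% of 2-fold changes, so differences of these sizes would mostly be missed. The same test, with a term for the gene list and members summed per sample, called 1 of 13691 genes (0.0073%), and 522 genes (3.81%) had an unadjusted p under 0.05. DESeq2 called 182 (1.33%), of which 138 had no overlap between the groups. Groups did not overlap for 6.17% of all genes tested, 3.71% with old higher and 2.46% with old lower. The gene called was Cyba, a subunit of the superoxide-producing NADPH oxidase, named here after its values were seen. It had 0, 1 and 1 UMIs in the members of young 1, 2 and 3 and 166, 4848 and 6316 UMIs, or 1.77, 90.3 and 72.0 CPM, in those of old 1, 2 and 3. The groups did not overlap (adjusted p = 0.00139, edgeR), and the call was lost without young 1 or old 1, without the gene list term and on the longer gene list only. Its adjusted p reached 0.78 over the alternatives.

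No gene of the division lists was called between old and young members with edgeR. There 2 of 22 spindle genes and 1 of 18 kinetochore genes had an unadjusted p under 0.05, beside 3.81% over all genes tested. DESeq2, which called 1.33% of all genes, called 1 of the lists, the spindle gene Psrc1, as higher in old (named after its values were seen). Medians of the differences (old over young, log2) lay between -0.13 and -0.02 for the 8 cell cycle lists, against -0.0022 over all genes tested. Transcripts peaking in mitosis stood at 0.674, 0.603 and 0.742 of those peaking in G2 in young members and at 0.641, 1.10 and 0.893 in old members. The log2 ratio differed by 0.353 between the groups, -0.576 ± 0.149 in young and -0.223 ± 0.392 in old (SD, n = 3 each, exact permutation test, two-sided, p = 0.3). The ranges overlapped, with old 2 and old 3 above all young samples. The difference was 0.562 without old 1 and 0.174 without old 2.

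Among the Cdk inhibitors, Cdkn2a was higher and Cdkn2b lower in the members of every old sample. Neither passed the adjusted test with edgeR, and DESeq2 called both. Cdkn2a was at 14.0, 14.1 and 6.63 CPM in young and 97.1, 32.7 and 506 CPM in old members (11.6 ± 4.27 and 212 ± 257 CPM, SD, n = 3 each). The log2 difference was 4.09 (SE 1.17, adjusted p = 0.999, edgeR, and 0.00183, DESeq2), and 2.16 without old 3. Cdkn2b, its neighbour gene for another Ink4 inhibitor, was at 91.7, 40.7 and 69.3 CPM in young and 25.1, 9.80 and 13.3 CPM in old members (67.2 ± 25.6 and 16.05 ± 8.01 CPM), a difference of -2.13 (SE 0.29, adjusted p = 0.385, edgeR, and 4.53e-08, DESeq2). Cdkn1a overlapped between the groups, at 425, 378 and 117 CPM against 398, 998 and 86.2 CPM (0.73, SE 0.97), and the difference turned to -0.89 without old 2. All 15 p53 targets were above 0 in this comparison, as were 6805 of the 13691 genes tested, with a median of 0.56. None was called with edgeR. An unadjusted p under 0.05 was found for 4, beside 3.81% over all genes tested. DESeq2, which called 1.33% of all genes, called 2 of the list, Mdm2 and Pmaip1, both named after their values were seen. Groups did not overlap for 5 of the 15, all with old higher, beside 3.71% over all genes tested. Mdm2, the p53-degrading ligase, was at 251, 56.0 and 72.9 CPM in young and 352, 189 and 193 CPM in old members (1.21, SE 0.29, adjusted p = 0.999, edgeR, and 0.0226, DESeq2). Most differentiation genes (17 of 19, median 1.56) and interferon genes (13 of 15, median 0.41) were above 0 as well, and edgeR called none of them. The differentiation list summed to 444, 2058 and 340 CPM in young and 375, 878 and 8800 CPM in old members. Of the old samples, only old 3 lay above the young range. Groups overlapped for all 19 differentiation genes, where 6.17% of all genes tested did not overlap. In the other lists, DESeq2 called the collagen gene Col1a2, Igfbp3 and the epithelial marker Krt18 as higher and the mural marker Rgs5 as lower in old members, all named after their values were seen, and edgeR called none of these. Krt18 had 2, 0 and 0 UMIs in young members and 27, 268 and 983 in old members.

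Few genes passed the test of whether the difference between members and low cells was itself different in old and young populations. The interaction of state and age gave 0 calls among 13861 genes (0.0%) with edgeR, 317 genes (2.29%) at an unadjusted p under 0.05, and 5 calls with DESeq2. On simulated counts of 13885 genes the edgeR test found 84% of 4-fold and 62.6% of 2-fold changes. Those 5 were Sct, Myom3, S100a16, Fabp7 and Myl9, named after their values were seen. For Sct, which encodes the hormone secretin, the log2 ratio of members over low cells was -0.85, -1.85 and -3.04 in young and -0.71, -0.50 and -0.50 in old samples. For Myom3, a sarcomere protein, it was -2.22, -2.97 and -2.49 in young and -1.76, -1.63 and -0.93 in old samples. Old and young did not overlap for either gene, and both were lower in members in all 6 samples.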

How the data were processed

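The authors deposited, per sample, a matrix of raw UMI counts per gene and barcode, made with Cell Ranger 7.0.0 (young 1, old 1) or 7.2.0, per the file headers. The submitters' processing notes name build mm10, Cell Ranger 7.2.0 and Seurat 5.134. The rule for calling cells is not given in the sources used here. Counts of members and of low cells were summed per sample. They were tested two-sided by the robust quasi-likelihood method of edgeR 4.0.16 under R 4.3.3, after TMM scaling and filterByExpr, with the sample as a block, or with the gene list as a term for old against young. DESeq2 1.42.0 was an alternative. SE is the absolute log2 difference over the square root of F. No doublet caller was run; the 5% of cells with the most UMIs were left out in an alternative. Named were preset genes, the 3 largest differences per list, and the 10 largest each way with adjusted p under 0.05, 6 of 6 samples agreeing in sign and a mean log2 CPM above 5. Cdkn2b, Cdkn2c, cyclin D3, Cdk4 and Mdm2 were added after their values were seen. Members and lists were chosen with earlier results of these data known. Coordinates are from GENCODE on mm10. On simulated counts with 200 changed genes among 13003, the members fit found 100% of 4-fold and 91% of 2-fold changes; among 13430, the old against young fit found 27.6% and 2%. Values of 1 gene are not reported here.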

Additional observations from a re-analysis of the deposited data

Results flagged for a closer look

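Signals were also present in features outside the shared gene list, which no comparison used. The LACZ feature, on the shorter list only, had 931 UMIs in members of young 1 (21.4 CPM, and 22.8 CPM in low cells) and 0 UMIs in old 1, where 3 counts is the limit that a count of 0 allows. Xist, the X-inactivation transcript, is on the longer list only. It had 58905, 56285, 17437 and 55042 UMIs in members of young 2, young 3, old 2 and old 3, or 652, 466, 336 and 584 CPM, against 642, 418, 266 and 440 CPM in low cells.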

How the results depend on the processing

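Among the 89 named genes of members against low cells, 80 kept their direction and their side of the threshold in every alternative. The exceptions were Cdkn1a, Cdkn1c, Col6a1, Gdf15, Ifit1, Ifit3, Igfbp3, Isg15 and Pax7, and Pax7 alone changed sign, ranging from -0.21 to 0.065 with 1 sample left out (0.038 without young replicate 1, 0.065 without old replicate 1). Calls in this comparison ranged from 2443 to 2957 higher and from 3141 to 4036 lower over the alternatives. Leaving out 1 sample moved the difference in member share between -6.94 and 6.83 points, and the limit of 20 per 10000 gave 0.599. With 1 sample left out, log2 differences in UMIs per cell were 0.31 to 0.39, and members had 47.3 to 61.5 more genes per cell. Mitochondrial differences were -0.477 to -0.355 points. The share of cells with a Pax7 UMI then ranged from -0.136 to 1.41 points, and the Cdkn1a share turned to 0.212 points without thinning. Old against young within members gave 182 calls with DESeq2, 3 with cells thinned to 5000 UMIs, 0 without the gene list term, 0 on the longer list only, and 0 to 5 with 1 sample left out. Cdkn1a in that comparison ranged from -0.89, without old replicate 2, to 1.18. The interaction of state and age gave 5 calls with DESeq2 and 0 to 1 with 1 sample left out. The cause of these shifts was not tested. Few UMIs stand behind scarce transcripts such as Cdkn1c and Ifit3, at 1.02 and 0.495 CPM in members; the part of depth in their lost calls was not tested.

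Same-numbered young and old samples are not said to share a source, and their deviations correlated at 0.457, 0.189 and -0.042, so the numbers were not taken as pairs. The highest value, 0.457, was for young 1 with old 1, which alone were counted on the shorter gene list with Cell Ranger 7.0.0. Shared processing and a shared source cannot be told apart there. Young 3 correlated best with old 2, and old 3 with young 2. With the replicate number as a replicate block, old against young gave 1 call and the interaction 1 call (Myom3).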
